A study of Caenorhabditis elegans with 16 samples.

Results

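The lysosomal-type lipase genes of *Caenorhabditis elegans*, *lipl-1* to *lipl-8*, were followed across 4 groups of worms that differed in *ech-6* silencing and in fat supplementation. The genes were found in the table by their symbols. Of the 8 names, 7 were found among the 19750 genes of the expression table, and *lipl-8* (WBGene00013050) was not in that table and is not analysed here.

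These genes encode relatives of the human lysosomal acid lipase LIPA, which cleaves triglycerides and cholesteryl esters at the low pH of the lysosome. In worms, fat is stored mainly in the intestine, and lysosomal lipolysis releases fatty acids from it during fasting. *lipl-1* and *lipl-3* are known as fasting-responsive genes that the transcription factor HLH-30, the worm TFEB, activates and that MXL-3 represses in fed animals. *lipl-4* is known for lengthening lifespan when overexpressed, through the lipid-binding protein LBP-8 and the nuclear receptors NHR-49 and NHR-80. *lipl-5* is an intestinal lipase gene that also responds to fasting.

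The groups were *ech-6* RNAi + P-80, *ech-6* RNAi + vehicle, empty vector (EV) + P-80 and EV + vehicle, with 4 samples in each. Each sample was RNA from a pool of about 500 whole N2 (wild-type) worms on day 1 of adulthood, and all 4 groups were grown on *E. coli* HT115 from the first larval stage. The *ech-6* clone silences *ech-6*, which encodes an enoyl-CoA hydratase, while EV bacteria silence no gene. Polysorbate 80 (P-80) is a detergent with oleic acid attached, and vehicle is water. The P-80 concentration of these worms is not given in the sources used here. Samples are labelled only as replicates, so p-values measure the spread between these pools.

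Between 15306307 and 28129104 reads on genes lay behind each sample. Levels are given as log2 CPM (CPM, read counts scaled to a fixed library total), and a gene was called changed when its Benjamini-Hochberg adjusted p over all 19750 genes was below 0.05 in limma's moderated test. The targeted gene *ech-6* had 5.98, 6.09, 6.18 and 5.93 log2 CPM in *ech-6* RNAi + P-80 and 6.09, 6.05, 7.48 and 6.17 in *ech-6* RNAi + vehicle. It had 7.72, 7.89, 7.46 and 7.54 in EV + P-80 and 7.50, 7.40, 7.36 and 7.36 in EV + vehicle. The library labelled *ech-6* RNAi + vehicle replicate 3 therefore had as much *ech-6* RNA as EV worms. Limma values of the lipase genes that rest on it, and their sums, are given with and without it. Exact permutation tests and overlaps of single genes, median log2 fold changes and the molting covariate fit are given only with it. The summed level of 9 intestinal markers was 1548 to 1674 CPM in *ech-6* RNAi + P-80, 1433 to 1460 in *ech-6* RNAi + vehicle, 1531 to 1814 in EV + P-80 and 1538 to 1599 in EV + vehicle, so that the *ech-6* RNAi + vehicle samples lay below all others. In bulk RNA, fewer cells of a type and less RNA per cell cannot be told apart.

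The lipase genes moved in opposite directions with P-80. *lipl-1* and *lipl-7* were higher and *lipl-5* and *lipl-2* lower, whether or not *ech-6* was silenced. *lipl-3* and *lipl-4* passed the test, upward, in *ech-6* RNAi worms, and *lipl-6* passed it, downward, in EV worms. In *ech-6* RNAi worms 4 of the 7 genes were called higher and 2 lower with P-80, where 2.63% and 4.58% of all genes were called in these directions (7.21% in either). In EV worms 2 were called higher and 3 lower, where 6.97% and 9.14% of all genes were (16.1% in either). The median absolute log2 fold change of the 7 genes was 1.01 in *ech-6* RNAi worms, against 0.16 over all genes, and 0.76 in EV worms, against 0.20 over all genes. Without the library labelled *ech-6* RNAi + vehicle replicate 3, P-80 gave 2 higher calls (*lipl-1* and *lipl-7*) and 2 lower (*lipl-5* and *lipl-2*) in *ech-6* RNAi worms, where 3.56% of all genes were called.

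**Figure D1:**
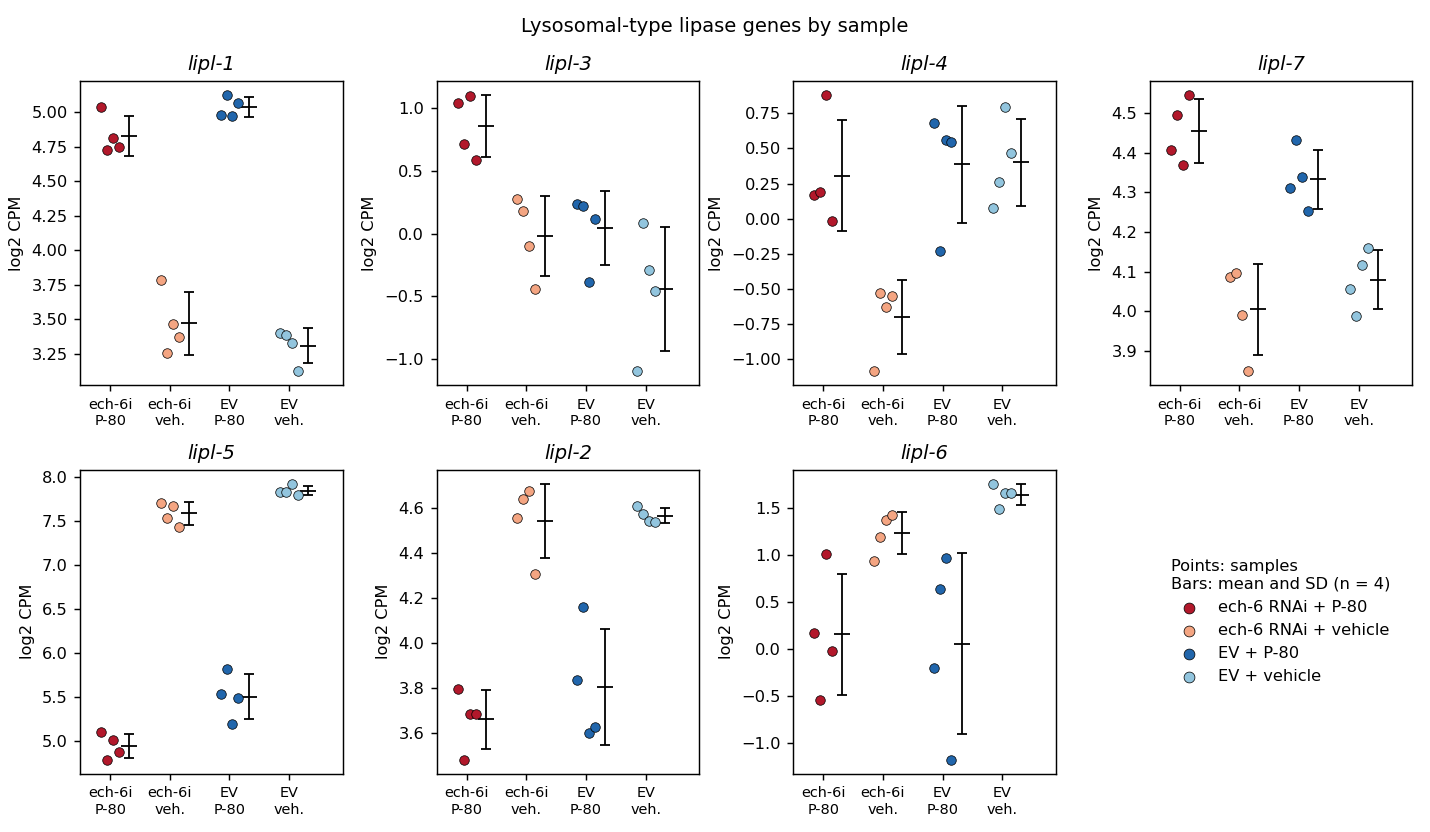
Level of each lipase gene in every sample (y axis, log2 CPM, a separate scale in each panel) in *ech-6* RNAi + P-80, *ech-6* RNAi + vehicle, EV + P-80 and EV + vehicle from left to right. Points are samples and bars the mean and SD (n = 4); with P-80 *lipl-1* lies above and *lipl-5* below every vehicle sample of the same RNAi.

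*lipl-5* (WBGene00022642; WBcel235 chromosome V, 385746 to 387740, plus strand, 6 exons) was the most abundant lipase gene of the 7 in vehicle worms and had the lowest log2 fold change with P-80. It had 5.102, 4.79, 5.01 and 4.88 log2 CPM in *ech-6* RNAi + P-80 and 7.71, 7.54, 7.68 and 7.43 in *ech-6* RNAi + vehicle. In EV + P-80 it had 5.53, 5.82, 5.19 and 5.49, against 7.83, 7.83, 7.93 and 7.80 in EV + vehicle. The 4 groups did not overlap, in the order EV + vehicle, *ech-6* RNAi + vehicle, EV + P-80 and *ech-6* RNAi + P-80 from high to low. P-80 gave *lipl-5* a log2 fold change of -2.64 in *ech-6* RNAi worms (standard error 0.097, adjusted p = 1.14e-12 by limma), to 0.160 times its level with vehicle, and -2.61 without replicate 3 of *ech-6* RNAi + vehicle. In EV worms the log2 fold change was -2.34 (adjusted p = 5.35e-12), or 0.197 times. Among the 13910 genes that averaged at least 1 CPM, 2 had a lower log2 fold change than *lipl-5* in *ech-6* RNAi worms and 6 in EV worms.

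*lipl-5* was also the single lipase gene that *ech-6* RNAi lowered in worms on P-80. Against EV, *ech-6* RNAi gave -0.56 in log2 (standard error 0.097, adjusted p = 0.00583 by limma), where 0.699% of all genes were called and 0.223% were called lower. With vehicle it was -0.26 (95% interval -0.46 to -0.06, adjusted p = 0.155), although the 4 *ech-6* RNAi samples lay below the 4 EV samples. Without the library labelled *ech-6* RNAi + vehicle replicate 3, the value with vehicle was -0.29 (adjusted p = 0.178). The call with P-80 was lost without limma's mean-variance trend (adjusted p = 0.0610) and when the 2 groups were fitted alone (adjusted p = 0.0671). With both treatments against neither, the log2 fold change of *lipl-5* was -2.90 (adjusted p = 2.02e-13).

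*lipl-1* (WBGene00010062; V, 12919986 to 12921692, plus strand, 5 exons), a fasting-responsive target of HLH-30, moved the other way. Its levels were 5.04, 4.72, 4.81 and 4.75 log2 CPM in *ech-6* RNAi + P-80 and 3.79, 3.26, 3.47 and 3.37 in *ech-6* RNAi + vehicle. It had 4.98, 5.13, 4.98 and 5.06 in EV + P-80 and 3.40, 3.39, 3.33 and 3.13 in EV + vehicle. Every P-80 sample lay above every vehicle sample, while within each diet *ech-6* RNAi and EV samples overlapped. *lipl-1* rose with P-80 by 1.36 in *ech-6* RNAi worms (standard error 0.10, adjusted p = 5.04e-08 by limma), a 2.56-fold rise, and by 1.36 also without replicate 3 of *ech-6* RNAi + vehicle. In EV worms it rose by 1.73 (adjusted p = 1.09e-09), or 3.31-fold. Of the genes averaging at least 1 CPM, 19 had a higher log2 fold change in *ech-6* RNAi worms and 15 in EV worms. Silencing *ech-6* gave -0.21 on the log2 scale with P-80 (95% interval -0.42 to 0.00314, adjusted p = 0.490) and 0.16 with vehicle (95% interval -0.05 to 0.37, adjusted p = 0.420). Without *ech-6* RNAi + vehicle replicate 3, the value with vehicle was 0.16 (adjusted p = 0.484 by limma).

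*lipl-2* (WBGene00009773; V, 9791567 to 9793241, plus strand, 5 exons) fell with P-80 like *lipl-5*, by less. It had 3.79, 3.48, 3.68 and 3.68 log2 CPM in *ech-6* RNAi + P-80 and 4.56, 4.64, 4.68 and 4.31 in *ech-6* RNAi + vehicle. It had 3.84, 4.16, 3.60 and 3.62 in EV + P-80 and 4.61, 4.58, 4.54 and 4.54 in EV + vehicle. All 8 P-80 samples lay below all 8 vehicle samples, and EV + P-80 replicate 2 was the highest of those on P-80. With P-80, *lipl-2* had -0.89 on the log2 scale in *ech-6* RNAi worms (standard error 0.11, adjusted p = 4.99e-05 by limma) and -0.76 in EV worms (adjusted p = 1.33e-04). Without *ech-6* RNAi + vehicle replicate 3, its value in *ech-6* RNAi worms was -0.84 (adjusted p = 4.87e-04). *ech-6* RNAi against EV gave -0.14 with P-80 (95% interval -0.37 to 0.08) and -0.02 with vehicle (95% interval -0.25 to 0.20), neither past the threshold. The value with vehicle was -0.07 without *ech-6* RNAi + vehicle replicate 3 (adjusted p = 0.821 by limma).

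*lipl-7* (WBGene00008510; IV, 10239278 to 10241823, minus strand, 6 exons), the single member of the 7 outside chromosome V, had a small rise. It had 4.41, 4.49, 4.37 and 4.55 log2 CPM in *ech-6* RNAi + P-80 and 4.09, 4.10, 3.99 and 3.85 in *ech-6* RNAi + vehicle. It had 4.31, 4.43, 4.34 and 4.25 in EV + P-80 and 4.06, 3.99, 4.12 and 4.16 in EV + vehicle. All P-80 samples lay above all vehicle samples, by a narrow gap in EV worms. *lipl-7* rose by 0.45 on the log2 scale in *ech-6* RNAi worms (standard error 0.070, adjusted p = 9.28e-04 by limma) and 0.25 in EV worms (adjusted p = 0.0187). The value in *ech-6* RNAi worms was 0.44 without *ech-6* RNAi + vehicle replicate 3 (adjusted p = 0.00431). The call in EV worms was lost without EV + P-80 replicate 2 (adjusted p = 0.0649), without EV + vehicle replicate 1 (0.0524) or without EV + vehicle replicate 2 (0.0514).

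*lipl-4* (WBGene00019376; V, 6550171 to 6552186, plus strand, 5 exons), the lipase linked to lifespan, was scarce, with 11 to 47 reads per sample. It had 0.17, 0.19, 0.88 and -0.02 log2 CPM in *ech-6* RNAi + P-80 and -1.09, -0.53, -0.63 and -0.55 in *ech-6* RNAi + vehicle. It had 0.68, -0.23, 0.56 and 0.54 in EV + P-80 and 0.08, 0.26, 0.80 and 0.47 in EV + vehicle. The *ech-6* RNAi + vehicle samples lay below all the others, and the other 3 groups overlapped. The same 4 samples had the lowest summed level of intestinal markers, and the part of this in the result was not tested. With vehicle, 0 of the 9 intestinal markers were called for *ech-6* RNAi against EV (median log2 fold change -0.14), where 2.94% of all genes were.

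*lipl-4* was higher with P-80 in *ech-6*-silenced worms, by 1.01 in log2 (standard error 0.26, adjusted p = 0.0265 by limma), or 2.01-fold. In EV worms the value was -0.01 (95% interval -0.57 to 0.54, adjusted p = 0.983). With vehicle, *ech-6* RNAi gave *lipl-4* -1.10 in log2 (standard error 0.26, adjusted p = 0.0293), and it was the single lipase gene called there, where 2.94% of all genes were called and 0.982% were called lower. With P-80 the difference between *ech-6* RNAi and EV was -0.08 (95% interval -0.64 to 0.47). The worms with both treatments differed from those with neither by -0.10 (95% interval -0.65 to 0.46, adjusted p = 0.837), and the 2 groups overlapped. Both *lipl-4* calls rested on few reads. Without the library labelled *ech-6* RNAi + vehicle replicate 3 the P-80 value was 1.03 (adjusted p = 0.0579) and the value with vehicle -1.12 (adjusted p = 0.0577). Each was also lost without *ech-6* RNAi + vehicle replicate 1, 2 or 4. The P-80 call was lost without *ech-6* RNAi + P-80 replicate 1, 2 or 3, and the call with vehicle without EV + vehicle replicate 3 or 4, with adjusted p-values up to 0.0906.

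*lipl-3* (WBGene00020016; V, 521595 to 524218, minus strand, 7 exons), a fasting-responsive gene like *lipl-1*, was also scarce, with 7 to 37 reads per sample. It had 1.04, 0.71, 1.09 and 0.59 log2 CPM in *ech-6* RNAi + P-80 and 0.28, 0.18, -0.10 and -0.44 in *ech-6* RNAi + vehicle. It had 0.23, 0.21, -0.39 and 0.11 in EV + P-80 and -1.09, 0.08, -0.29 and -0.46 in EV + vehicle. The *ech-6* RNAi + P-80 samples lay above all 12 others, whose groups overlapped. P-80 raised *lipl-3* in *ech-6* RNAi worms by 0.88 in log2 (standard error 0.26, adjusted p = 0.0496 by limma), and the value in EV worms was 0.48 (95% interval -0.07 to 1.04, adjusted p = 0.242). With both treatments against neither it was 1.30 (adjusted p = 0.00108), a 2.46-fold rise. The P-80 call in *ech-6* RNAi worms was lost on leaving out any of 12 of the 16 samples, with an adjusted p of up to 0.160, and without the library labelled *ech-6* RNAi + vehicle replicate 3 it was 0.85 (adjusted p = 0.114). *ech-6* RNAi against EV gave 0.81 with P-80 (95% interval 0.26 to 1.36, adjusted p = 0.233), a difference not called although the groups did not overlap. Such separation upward was seen in 2.56% of all genes, and downward, as for *lipl-5*, in 2.06%.

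*lipl-6* (WBGene00021963; V, 6931475 to 6934312, minus strand, 10 exons) was lower on average with P-80, and varied most of the 7 between replicates of the P-80 groups. It had 0.17, -0.54, 1.01 and -0.02 log2 CPM in *ech-6* RNAi + P-80 and 0.94, 1.20, 1.38 and 1.43 in *ech-6* RNAi + vehicle. It had -0.20, 0.64, 0.97 and -1.18 in EV + P-80 (8 to 44 reads) and 1.77, 1.49, 1.66 and 1.67 in EV + vehicle (52 to 86 reads). The groups overlapped in *ech-6* RNAi worms, through replicate 3 on P-80, and did not overlap in EV worms. *lipl-6* had -1.08 on the log2 scale in *ech-6* RNAi worms (95% interval -1.84 to -0.32, adjusted p = 0.0809 by limma) and -1.59 in EV worms (standard error 0.36, adjusted p = 0.00521). Without *ech-6* RNAi + vehicle replicate 3, the value in *ech-6* RNAi worms was -1.03 (adjusted p = 0.176).

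A list of 9 genes of molting larvae (*mlt-8*, *mlt-10*, *mlt-11*, *noah-1*, *noah-2*, *nas-37*, *fbn-1*, *bli-1* and *ptr-4*) moved with diet and with *lipl-6*. Their summed level was 205 to 458 CPM in *ech-6* RNAi + P-80, against 545 to 620 CPM in *ech-6* RNAi + vehicle. It was 164 to 493 CPM in EV + P-80, against 738 to 1256 CPM in EV + vehicle. With P-80, 8 of the 9 were called lower in *ech-6* RNAi worms and 9 of 9 in EV worms, and none was at 0. Within each P-80 group the 4 samples stood in the same order for *lipl-6* as for the mean log2 level of these 9 genes, with replicate 3 highest in both groups and EV + P-80 replicate 4 lowest of all 16. In the vehicle groups, whose samples differed less in *lipl-6*, the orders were not the same.

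Other markers moved with P-80 as well. Of 6 hypodermis markers, 2 were called lower in *ech-6* RNAi worms (median log2 fold change -0.65) and 4 lower and 1 higher in EV worms (median -0.73). Their summed level was 1880 to 1968 CPM in *ech-6* RNAi + P-80, 1747 to 1964 in *ech-6* RNAi + vehicle, 1790 to 1965 in EV + P-80 and 1587 to 1730 in EV + vehicle. Of 11 oocyte and germline markers, 0 were called in *ech-6* RNAi worms and 5 higher in EV worms, and of 8 sperm markers 2 were called higher in each. Muscle markers had 2 of 4 called higher in *ech-6* RNAi worms and 0 in EV worms. Intestinal markers had 1 of 9 higher in each, and 1 lower in EV worms. Neuron markers had 0 of 4 called in *ech-6* RNAi worms and 1 lower in EV worms. Embryo markers had 1 of 5 lower in each, and 1 higher in EV worms. Over all genes, 2.63% were called higher and 4.58% lower in *ech-6* RNAi worms, and 6.97% and 9.14% in EV worms. The part of these markers in the lipase values was not tested.

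The mean log2 level of the 9 molting genes was added to the fit as a covariate, an alternative chosen after the data were seen. *lipl-6* then had a log2 fold change with P-80 of 0.13 in *ech-6* RNAi worms (adjusted p = 0.919 by limma) and 0.03 in EV worms (adjusted p = 0.990). *lipl-5* had -2.62 in *ech-6* RNAi worms (adjusted p = 1.30e-12) and -2.31 in EV worms (adjusted p = 2.76e-10). *lipl-1* had 1.32 in *ech-6* RNAi worms (adjusted p = 9.45e-07) and 1.67 in EV worms (adjusted p = 3.47e-07). *lipl-2* had -0.77 (adjusted p = 0.00311) in *ech-6* RNAi worms and -0.61 (adjusted p = 0.0999) in EV worms. *lipl-7* had 0.47 in *ech-6* RNAi worms (adjusted p = 0.0181) and 0.28 in EV worms (adjusted p = 0.459). In *ech-6* RNAi worms *lipl-3* had 0.76 (adjusted p = 0.523) and *lipl-4* 1.14 (adjusted p = 0.248). The covariate itself differed between diets, so developmental timing and other effects of P-80 cannot be told apart, and 0.678% of all genes were called for P-80 in *ech-6* RNAi worms and 0.582% in EV worms in that fit.

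**Figure D2:**
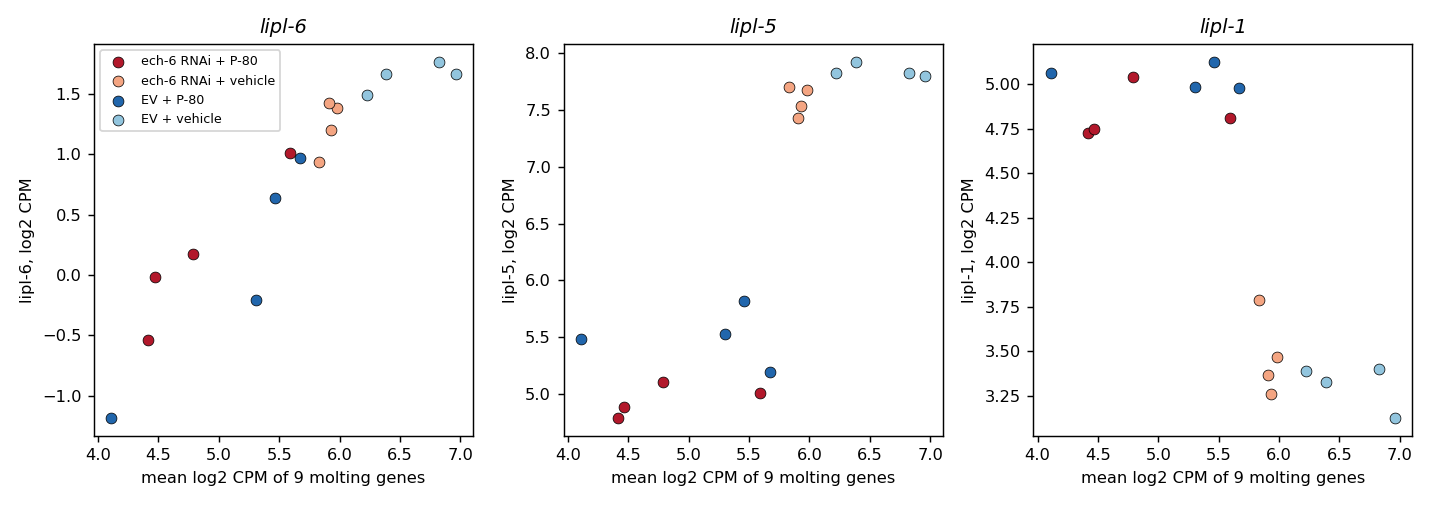
Level of *lipl-6*, *lipl-5* and *lipl-1* (y axes, log2 CPM) against the mean log2 CPM of the 9 molting genes (x axis) in the 16 samples, coloured by group. *lipl-6* is lowest, at -1.18, where the molting genes are lowest, and *lipl-5* and *lipl-1* split by diet. The molting mean splits by diet too, at no more than 5.67 with P-80 and no less than 5.83 with vehicle.

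Fewer lipase genes were called for *ech-6* RNAi than for P-80, as were fewer of all genes. With P-80, 1 of 7 was called (*lipl-5*, where 0.699% of all genes were), and with vehicle 1 of 7 (*lipl-4*, where 2.94% were), both lower. Without *ech-6* RNAi + vehicle replicate 3, 0 of 7 were called with vehicle, where 1.75% of all genes were. With vehicle, *lipl-4*, *lipl-5* and *lipl-6* had every *ech-6* RNAi sample below every EV sample, as did 7.11% of all genes. With both treatments against neither, 3 were called higher (*lipl-1*, *lipl-3* and *lipl-7*) and 3 lower (*lipl-5*, *lipl-2* and *lipl-6*), where 25.4% of all genes were called in either direction. These comparisons share samples, so their counts are not independent. *lipl-2* had -0.91 (adjusted p = 8.48e-06 by limma), *lipl-6* -1.49 (adjusted p = 0.00445), *lipl-1* 1.52 (adjusted p = 5.23e-09) and *lipl-7* 0.37 (adjusted p = 5.45e-04).

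**Figure D3:**
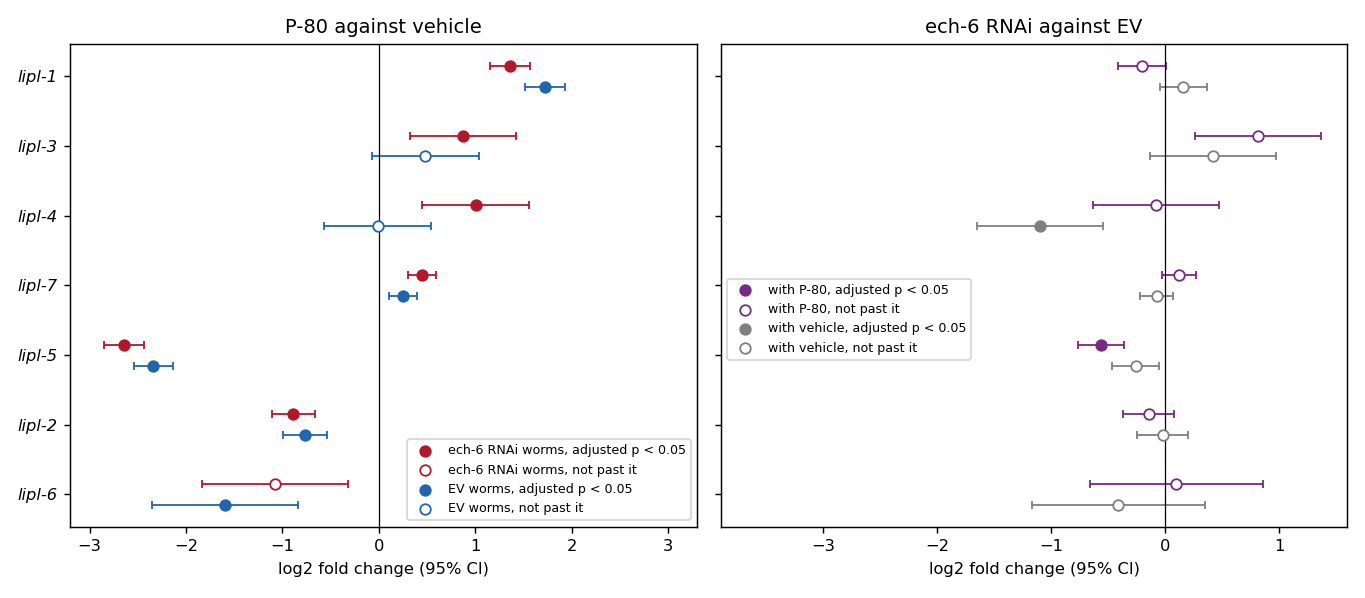
Log2 fold changes (x axis, with 95% confidence intervals) of the 7 lipase genes for P-80 against vehicle (left) in *ech-6* RNAi and EV worms and for *ech-6* RNAi against EV (right) with P-80 and with vehicle. Filled points have an adjusted p below 0.05; *lipl-5* lies at -2.64 and -2.34 on the left, and *lipl-4* is the single filled point with vehicle on the right.

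The interaction, the difference between the 2 log2 fold changes, tests whether the response to P-80 depended on *ech-6* RNAi. None of the 7 genes passed the threshold over all genes, as did 0% of all genes. At an unadjusted p below 0.05, 3 did, against 5.91% of all genes. The difference, *ech-6* RNAi minus EV, was -0.37 for *lipl-1* (standard error 0.14, unadjusted p = 0.0180, adjusted p = 0.790 by limma). It was -0.30 for *lipl-5* (unadjusted p = 0.0402, adjusted p = 0.810). For *lipl-4* it was 1.02 (95% interval 0.23 to 1.80, unadjusted p = 0.0136, adjusted p = 0.764). Without *ech-6* RNAi + vehicle replicate 3, 2 of the 7 had an unadjusted p below 0.05, against 6.35% of all genes. The values were then -0.37 for *lipl-1* (unadjusted p = 0.0262), 1.04 for *lipl-4* (0.0173) and -0.27 for *lipl-5* (0.0777), and no gene of the 7 was called. The different calls of *lipl-3*, *lipl-4* and *lipl-6* in *ech-6* RNAi and EV worms are thus not shown to be different responses.

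Each gene was also compared by two-sided exact permutation tests over the 8 samples of 2 groups, 35 tests in all, where the smallest possible p is 0.0286. In *ech-6* RNAi worms P-80 gave that smallest exact p for 6 of the 7 genes, all but *lipl-6* (exact p = 0.0571), and in EV worms for 5, all but *lipl-3* (exact p = 0.114) and *lipl-4* (exact p = 0.943). In *ech-6* RNAi worms 4 genes had every P-80 sample higher and 2 every P-80 sample lower, as did 4.85% and 6.33% of all genes. In EV worms 2 had every P-80 sample higher and 3 lower, as did 8.20% and 10.8% of all genes.

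Divided by exon length, the lipase genes can be set against each other. On the scale of CPM per kb of exon, *lipl-5* had 24.5 ± 2.35 (SD, n = 4) in *ech-6* RNAi + P-80, 153 ± 13.3 in *ech-6* RNAi + vehicle, 36.4 ± 6.48 in EV + P-80 and 182 ± 7.08 in EV + vehicle. *lipl-1* had 21.3 ± 2.23 CPM per kb in *ech-6* RNAi + P-80, 8.37 ± 1.38 in *ech-6* RNAi + vehicle, 24.6 ± 1.23 in EV + P-80 and 7.44 ± 0.633 in EV + vehicle. *lipl-2* lay between 9.91 and 18.6 CPM per kb in its group means and *lipl-7* between 12.4 and 16.9. *lipl-3*, *lipl-4* and *lipl-6* together made up 3.50% of the sum in *ech-6* RNAi + P-80, 1.18% in *ech-6* RNAi + vehicle, 2.42% in EV + P-80 and 1.31% in EV + vehicle.

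The sum over the 7 genes was lower with P-80, at 75.3 ± 4.95 CPM per kb (SD, n = 4) in *ech-6* RNAi + P-80 and 194 ± 16.3 in *ech-6* RNAi + vehicle. It was 89.8 ± 9.94 in EV + P-80 and 224 ± 7.43 in EV + vehicle. The groups did not overlap in either comparison (two-sided exact permutation test, p = 0.0286, the smallest possible). Without *lipl-5* the sum was higher with P-80: 50.8 ± 2.69 in *ech-6* RNAi + P-80, against 41.4 ± 3.26 in *ech-6* RNAi + vehicle, and 53.3 ± 3.70 in EV + P-80, against 42.0 ± 0.545 in EV + vehicle (exact permutation p = 0.0286 for each). *lipl-5* made up 32.4% ± 1.12 of the sum in *ech-6* RNAi + P-80 and 78.7% ± 0.649 in *ech-6* RNAi + vehicle, and 40.4% ± 2.98 in EV + P-80 and 81.3% ± 0.480 in EV + vehicle. The ratio of *lipl-1* to *lipl-5* was 0.873 in *ech-6* RNAi + P-80 and 0.0546 in *ech-6* RNAi + vehicle, and 0.687 in EV + P-80 and 0.0408 in EV + vehicle. Without *ech-6* RNAi + vehicle replicate 3, that group had a sum of 191 ± 18.0 CPM per kb, or 40.9 ± 3.80 without *lipl-5*, a *lipl-5* share of 78.5% ± 0.726 and a ratio of 0.0558 (SD, n = 3). It did not overlap with *ech-6* RNAi + P-80 in any of these measures (exact permutation p = 0.0571 for each, the smallest possible with 4 samples against 3). These are RNA levels, and lipase protein or activity was not measured in these data.

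**Figure D4:**
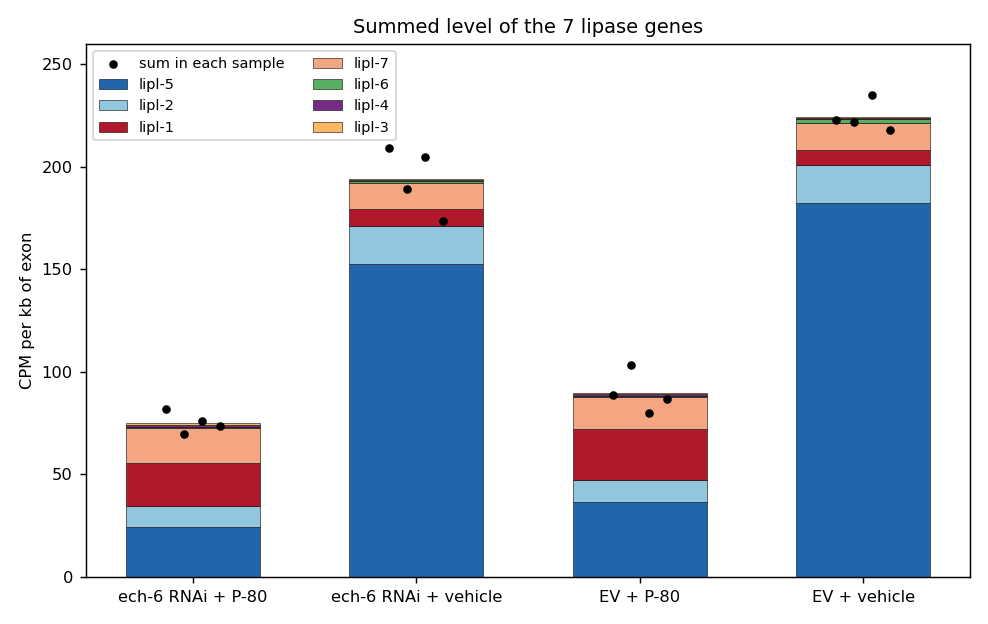
Mean level of the 7 lipase genes, stacked (y axis, CPM per kb of exon), in the 4 groups; black points are the sums in each sample (n = 4). The sum is 75.3 and 89.8 in the P-80 groups, against 194 and 224 in the vehicle groups, and the *lipl-5* segment accounts for most of the sum with vehicle.

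For each lipase gene, the genes of at least 1 CPM whose log2 levels over the 16 samples differed least from it, each set to a mean of 0, were looked up by root mean square difference. The lipase genes themselves were left out of this search. *lipl-5* lay closest to *gba-4* (0.319), a glucocerebrosidase homologue, and *scav-5* (0.321), of the CD36 scavenger receptor family, where its own spread about its mean was 1.27. *gba-4* had log2 fold changes with P-80 of -2.10 in *ech-6* RNAi and -2.05 in EV worms, and *scav-5* had -2.36 in *ech-6* RNAi and -2.34 in EV worms. Both were picked for likeness to *lipl-5* in these same samples, so values near those of *lipl-5* follow from the choice. *lipl-1* lay closest to the C-type lectin genes *clec-218* (0.151) and *clec-5* (0.167), with its own spread at 0.788. *lipl-2* lay closest to *clec-50* (0.142) and the patched-related gene *ptr-21* (0.179), at a spread of 0.440.

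*lipl-6* was closest to *R57.2* and *K04H4.2* (0.196 each, spread 0.855), and *lipl-3* to the transthyretin-related gene *ttr-22* (0.225) and *ZK669.3* (0.297), at a spread of 0.558. *lipl-7* was closest to *F22E12.1* (0.0972) and *sptl-3* (0.101), a serine palmitoyltransferase subunit, at a spread of 0.197. *lipl-4* had no close match, with *R07C12.4* at 0.387 and *F46F2.3* at 0.393 against its own spread of 0.554.

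Transcription factors and lipid carriers known to act on or downstream of lysosomal lipases were compared as a list of 17 genes, all in the table. In *ech-6* RNAi worms P-80 gave 0 higher and 1 lower call, where 7.21% of all genes were called in either direction. In EV worms it gave 1 higher and 4 lower, where 16.1% of all genes were called. *hlh-30*, the activator of *lipl-1* and *lipl-3* in fasting, was lower with P-80 in both, at -0.33 on the log2 scale in *ech-6* RNAi worms (standard error 0.071, adjusted p = 0.010 by limma) and -0.39 in EV worms (adjusted p = 0.00130). *mxl-3*, their repressor, was higher by 0.57 in EV worms (adjusted p = 7.68e-05), and its value in *ech-6* RNAi worms was 0.24 (adjusted p = 0.0542). Without *ech-6* RNAi + vehicle replicate 3, *hlh-30* had -0.28 (adjusted p = 0.0432 by limma) and *mxl-3* 0.24 (adjusted p = 0.123) in *ech-6* RNAi worms. *nhr-49* and *nhr-80*, the receptors downstream of LIPL-4, had 0.08 and 0.04 in *ech-6* RNAi worms and 0.00384 and -0.13 in EV worms, none called. The median of the list was -0.02 in *ech-6* RNAi worms, against -0.02 over all genes, and 0.00384 in EV worms, against -0.00250 over all genes.

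The other lipases were compared as a list of 25 neutral lipase and lipid droplet genes, of which 21 were in the table. In *ech-6* RNAi worms 0 were called higher and 3 lower with P-80, and in EV worms 2 higher and 6 lower, at median log2 fold changes of -0.07 in *ech-6* RNAi worms, where 7.21% of all genes were called in either direction, and -0.05 in EV worms, where 16.1% were. Without *ech-6* RNAi + vehicle replicate 3, 2 were called lower in *ech-6* RNAi worms, and *lips-9* had an adjusted p of 0.05002 by limma, just above the threshold. The lipase genes *lips-9*, with -1.49 in *ech-6* RNAi worms (adjusted p = 0.0180 by limma) and -1.11 in EV worms (adjusted p = 0.0432), and *lips-7*, with -1.32 in *ech-6* RNAi worms (adjusted p = 0.0137) and -1.23 in EV worms (adjusted p = 0.00933), were the lowest and highest of those called in *ech-6* RNAi worms. *atgl-1*, the triglyceride lipase of lipid droplets, had -0.05 in *ech-6* RNAi worms (adjusted p = 0.644) and -0.00141 in EV worms (adjusted p = 0.989). None of the 21 was called for *ech-6* RNAi with either diet.

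Of 18 genes listed for the lysosomal membrane and lipid export, P-80 gave 1 higher and 1 lower call when *ech-6* was silenced, and 1 higher and 3 lower in EV worms, at a median of 0.03 in *ech-6* RNAi worms and -0.04 in EV worms. *vha-6*, an intestinal proton pump subunit gene, had log2 fold changes of 0.31 in *ech-6* RNAi worms (adjusted p = 3.21e-04 by limma) and 0.28 in EV worms (adjusted p = 3.74e-04). *vha-6* is also among the intestinal markers, and RNA levels do not show whether its protein lies in lysosomes. *ncr-1*, a homologue of the sterol transporter NPC1, had -0.42 in *ech-6* RNAi worms (adjusted p = 0.00102) and -0.58 in EV worms (adjusted p = 1.81e-05). A list of 11 metabolic genes linked to fasting was also compared, and the direction in which fasting moves each was not established here. With P-80, 3 were called higher and 2 lower when *ech-6* was silenced, and 2 higher and 3 lower in EV worms. Their median was 0.18 in *ech-6* RNAi worms and 0.11 in EV worms. Both lists are to be read against the same shares of all genes, 7.21% in *ech-6* RNAi worms and 16.1% in EV worms. Without *ech-6* RNAi + vehicle replicate 3, *icl-1*, a glyoxylate cycle enzyme gene, was no longer among those lower in *ech-6* RNAi worms (adjusted p = 0.111). *fat-5*, a desaturase of palmitic acid, was highest, with 2.99 in *ech-6* RNAi worms (adjusted p = 1.80e-05) and 2.40 in EV worms (adjusted p = 1.15e-04). *hacd-1*, a hydroxyacyl-CoA dehydrogenase gene, was lowest in *ech-6* RNAi worms, with -0.85 (adjusted p = 5.25e-08), against -0.38 in EV worms (adjusted p = 5.79e-04).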

How the data were processed

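RNA from whole worms was sequenced in 4 groups of 4 samples. The authors trimmed reads with Trimmomatic 0.32, aligned them to WBcel235 (Ensembl release 91) with HISAT2 2.0.4, counted reads per gene by strand with HTSeq 0.6.1, required over 2 counts in 4 or more samples for a gene to be kept and scaled by TMM. The values deposited are log2 CPM of 19750 genes, although the table's header says CPM. With the log and the added constant undone, 100% of values below 1000 reads were whole (tolerance 0.05), which gave the reads per gene.

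Groups were taken from the labels. Log2 values of all 16 samples were fitted with limma 3.58.1 in R 4.3.3 (1 mean per group, mean-variance trend), with two-sided moderated tests, Benjamini-Hochberg adjustment over all genes and a threshold of 0.05. Voom precision weights, the authors' method, were computed anew from the reads so recovered and used as an alternative. Log2 fold changes had a median standard error of 0.14. The others were log2(CPM + 1), a filter at 1 CPM, robust moderation, no trend, quantile normalization, median centring, only the groups compared, sample weights, a replicate block, a molting covariate and leaving out each sample. The fit was tested on simulated data. Exon lengths and coordinates come from Ensembl release 115 of the same assembly. Python 3.11.15, pandas 2.3.3, SciPy 1.17.1 and matplotlib 3.10.9 were used.

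The lipase genes and the gene lists were chosen with earlier results of these data known. The genes named were the lipase genes, *ech-6*, the called list genes with the highest and lowest P-80 response in *ech-6* RNAi worms, and the 2 most alike other genes for each lipase gene, lipase genes left out. *mxl-3*, *nhr-49*, *nhr-80*, *atgl-1*, *icl-1* and the neighbouring genes were added after values were seen. Per the sources used here, strand was counted, so opposite-strand RNAs that overlap *lipl-4* share no reads with it by design; *lipl-3* shares 23 exon bases with *srw-107* on the same strand.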

Additional observations from a re-analysis of the deposited data

Results flagged for a closer look

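In groups of 4 samples, the sample farthest from the others was compared with the group's range for the 7 lipase genes and *ech-6*, 32 groups in all, at the 95% critical value of Dixon's ratio, which chance passes in about 1 of 20 groups. *lipl-4* in EV + P-80 replicate 2 stood apart, at -0.23 log2 CPM where the next sample had 0.54 (a gap of 0.849 of the range). *ech-6* in the library labelled *ech-6* RNAi + vehicle replicate 3 stood apart too, at 7.48 log2 CPM where the next had 6.17 (0.922 of the range).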

How the results depend on the processing

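The number of lipase genes called was tried under 11 alternatives (10 for the interaction) and with each of the 16 samples left out. With P-80 the count in *ech-6* RNAi worms was 6, and 4 to 7 both over the alternatives and over the left-out samples. For P-80 in EV worms it was 5, with 4 to 5 over the left-out samples and 2 with the molting covariate. For *ech-6* RNAi with vehicle it was 1, with 0 to 1 over the left-out samples, 0 with the molting covariate and 2 when only the groups compared were fitted, which added *lipl-5* (adjusted p = 0.0110 by limma). For *ech-6* RNAi with P-80 it was 1, and 0 without the trend and with only the groups compared. For both treatments against neither it was 6, and 2 with the molting covariate. The interaction had 0 lipase genes throughout.

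*lipl-6* changed sign with the molting covariate, at 0.0277 for P-80 in EV worms and 0.48 for both treatments against neither. Its P-80 response in *ech-6* RNAi worms passed the threshold with log2(CPM + 1) (adjusted p = 0.0460 by limma), only the groups compared (0.0331) and sample weights (0.0168), and without EV + P-80 replicate 3 (0.0463), EV + P-80 replicate 4 (0.0171) or *ech-6* RNAi + P-80 replicate 3 (0.0195). *lipl-3* in *ech-6* RNAi worms missed it without the trend (0.0702) and in the robust fit (0.0589), and *lipl-4* with only the groups compared (0.0513). The causes were not tested.

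Groups share replicate numbers, but deviations of 24 same-numbered pairs correlated at -0.290 to 0.494, and over 0.1 in 6, so the numbers were not taken to pair the samples. The replicate block moved 1 lipase call: *lipl-3* in *ech-6* RNAi worms, at 0.88 with an adjusted p of 0.0645 by limma.

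Over all genes, calls without the trend were 448 instead of 1424 for P-80 in *ech-6* RNAi worms, 222 instead of 580 for *ech-6* RNAi with vehicle and 67 instead of 138 with P-80. With only the groups compared they were 1449 and 75 for *ech-6* RNAi with vehicle and with P-80, and with sample weights 1023 with vehicle. With the molting covariate they were 134 and 115 (instead of 3182) for P-80 in *ech-6* RNAi and EV worms, 221 and 242 for *ech-6* RNAi with vehicle and with P-80, and 227 instead of 5023 for both against neither. Leaving out 1 sample gave 3.11% to 9.82% of all genes (7.21% with all samples) for P-80 in *ech-6* RNAi worms and 10.04% to 18.9% (16.1%) in EV worms. It gave 1.05% to 4.15% (2.94%) for *ech-6* RNAi with vehicle and 0.501% to 1.59% (0.699%) with P-80. The interaction called 0 to 1 genes in the other alternatives, and 10 with the covariate. Median centring moved the share of higher calls to 57.7% from 36.4% for P-80 in *ech-6* RNAi worms, to 63.4% from 43.3% in EV worms and to 70.04% from 45.1% for both treatments against neither, where the median of all genes was 0.11.

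*lipl-3*, *lipl-4* and *lipl-6* had 7 to 86 reads per sample, which limits what their differences can show.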

Other observations

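Protein-coding genes next to the lipase genes on the chromosome were compared for P-80. Over all genes, 7.21% were called in *ech-6* RNAi worms and 16.1% in EV worms. Among the neighbours, *ztf-7*, *F46B6.9*, *nhr-210*, *twk-10*, *unc-68*, *Y57E12B.10*, *tkt-1* and *Y50E8A.6* were called in neither. *dhrs-4*, a short-chain dehydrogenase gene that starts 915 bases beyond *lipl-1*, was higher with P-80 by 0.63 in *ech-6* RNAi worms (adjusted p = 5.31e-06 by limma) and 0.47 in EV worms (adjusted p = 1.01e-04), whereas *nid-1* on the other side had 0.02 and -0.02, neither called. *K04A8.20*, 378 bases from *lipl-4*, had 1.53 in *ech-6* RNAi worms (adjusted p = 0.144) and 1.88 in EV worms (adjusted p = 0.0361), where *lipl-4* itself had 1.01 and -0.01. The standard error of *K04A8.20* was 0.59 in each, against 0.26 for *lipl-4* and a median of 0.14 over all genes. The neighbours of *lipl-5*, *ZK6.8* and *ZK6.6*, had 0.20 and -0.54 in *ech-6* RNAi worms and 0.05 and 0.28 in EV worms, none called. *ech-8*, which lies 101 bases from *lipl-7* on the same strand and belongs to the enoyl-CoA hydratase family, had 0.28 in *ech-6* RNAi worms (adjusted p = 0.0518) and 0.03 in EV worms (adjusted p = 0.864).

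Among the genes listed for fasting, *acdh-1*, an acyl-CoA dehydrogenase gene, was higher with *ech-6* RNAi than with EV on vehicle. Its log2 fold change was 2.03 (adjusted p = 1.94e-04 by limma). *acs-2* (-0.31, adjusted p = 0.0421) and *icl-1* (-0.32, adjusted p = 0.00326) were lower. The other 8 of the 11 were not called, where 2.94% of all genes were. Without *ech-6* RNAi + vehicle replicate 3, the same list genes were called in the same directions, where 1.75% of all genes were. *acdh-1*, *acs-2* and *icl-1* were chosen after their values were seen.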
